A study of Mus musculus with 8 samples.

Results

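The response of NOD.Idd3 CD11b+ cells to peptidoglycan (PGN) was measured on 4 of the 8 arrays of the study, 2 of unstimulated and 2 of PGN-treated cells, chosen by their sample labels. NOD mice develop autoimmune diabetes spontaneously, and NOD.Idd3 is the strain that differs from NOD at Idd3, a diabetes susceptibility locus on chromosome 3 that holds the cytokine genes Il2 and Il21. Unstimulated cells were kept in medium alone and PGN-treated cells in 5 µg/ml PGN, in each case for 4 h at 37 °C. The other 4 arrays held NOD CD11b+ cells under the same 2 conditions with 2 arrays each, and they entered the fit to share its estimate of the spread. The sources used here do not give the tissue, sex or age of the mice. The labels call the arrays biological replicates without naming separate animals or pools, and the p-values therefore speak of the spread between these samples alone.

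PGN is a polymer of the bacterial cell wall that is sensed at the cell surface by TLR2 and, as small fragments, inside the cell by NOD1 and NOD2. Both routes activate NF-kB and MAP kinases, which switch on cytokines together with inhibitors that end the signal. CD11b, the integrin chain encoded by Itgam, is carried by neutrophils, monocytes and macrophages and by some dendritic and NK cells. In such bulk samples fewer cells of a type and less RNA per cell cannot be told apart.

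Of 18193 genes, 572 passed at an adjusted p under 0.05 in limma, which is 3.14% of the genes tested. Expression was higher with PGN for 344 (1.89%) and lower for 228 (1.25%). The median log2 change was 1.78 among the genes that rose and -1.56 among those that fell, against 0.05 over all genes, and the smallest change that passed was 0.86. A change of at least 2-fold was seen for 332 of the rises and 220 of the falls, and one of at least 8-fold for 43 and 3. None of the 572 genes had overlapping values between the PGN and unstimulated arrays. This follows largely from their selection on these same values, and the share over all genes is not given. All values below are log2 intensities in the order unstimulated replicates 1 and 2, then PGN replicates 1 and 2, and changes are log2 differences with the limma standard error.

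The number of genes that passed depended on single arrays. It was 200 and 57 without unstimulated replicates 1 and 2, and 300 and 56 without PGN replicates 1 and 2. The fit did not pair the arrays by replicate number, so its standard errors and calls leave that pairing out. With the replicate number as a block 1207 genes passed, which included all 572. When each NOD.Idd3 array was left out in turn, 47 genes passed every time, 45 higher and 2 lower, the lower being Susd3 and Rassf3, named here after their values were seen.

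**Figure D1:**
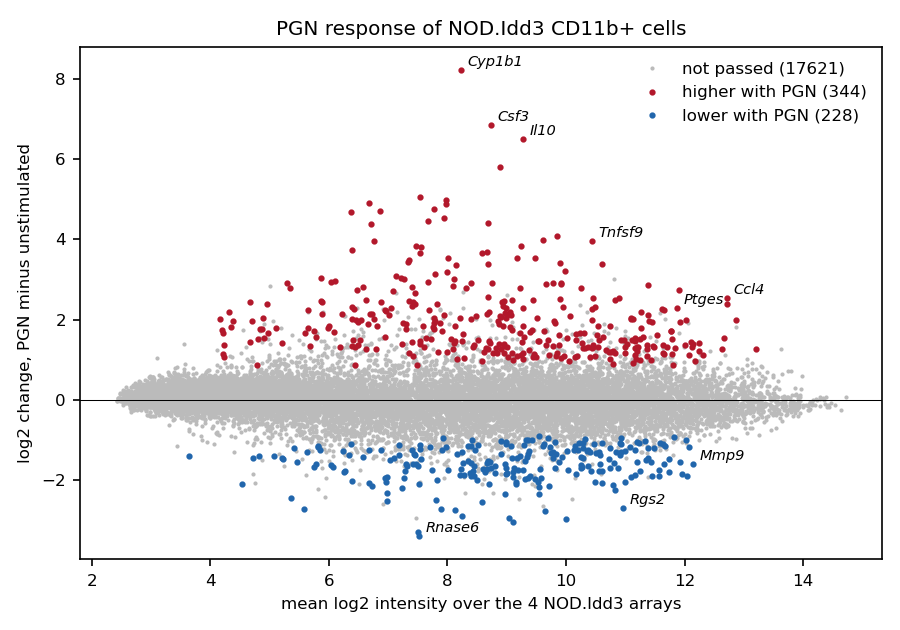
Log2 change with PGN (vertical axis) against the mean log2 intensity over the 4 NOD.Idd3 arrays (horizontal axis), 1 point per gene, with genes that passed in red (344 higher) and blue (228 lower). The rises reach 8.22, for Cyp1b1, and the falls reach -3.39, for Rnase6.

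Cyp1b1, a cytochrome P450 gene that is a known target of the aryl hydrocarbon receptor, had the largest rise. It stood at 3.98 and 4.27 in unstimulated and at 12.30 and 12.38 in PGN-treated cells, a change of 8.22 ± 0.59 (adjusted p = 0.00075). Both unstimulated values lay below the 25th percentiles of the arrays (4.28 to 4.49), so the size of this rise is bounded by the dim end of the scale. The other probe sets of Cyp1b1 changed by 5.38 and 2.05. Of the 344 genes that rose, 27 had an unstimulated mean below 4.49, and the order of such rises is not established. Among the other 8 measured genes of the aryl hydrocarbon receptor list (1 of 9 rose, 11.11% against 1.89% of all genes, median 0.37) none passed. Tiparp, another target of that receptor, stood at 10.17, 9.73, 12.06 and 11.43, with a change of 1.79 ± 0.42 (adjusted p = 0.0586, which was 0.00811 with the replicate block). Ahrr, the receptor's repressor, stood at 8.39, 5.42, 9.57 and 9.64, with unstimulated replicate 1 nearer to the PGN arrays than to replicate 2 and a change of 2.70 ± 1.12 (adjusted p = 0.291). The receptor gene Ahr changed by -0.11 ± 0.22.

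Promoter sequences were taken from RefSeq (GRCm38.p6) for the 20 largest rises, of which 12 had an entry. The 250 bases before the start were searched on both strands for the AP-1 site TGACTCA, the CRE site TGACGTCA, the NF-kB consensus and the aryl hydrocarbon response element core TNGCGTG. An AP-1 match cannot overlap a CRE match. A match was found for Cyp1b1, Sphk1 and Hamp, whose windows are shown, 5′ to 3′ on the strand of the gene, with the match in capitals. In Cyp1b1 (chr17:79715062-79715311, minus strand) the capitals mark an NF-kB consensus on the opposite strand at -188 to -179. In Sphk1 (chr11:116531587-116531836, plus strand) and Hamp (chr7:30944030-30944279, minus strand) they mark an AP-1 site on the opposite strand, at -50 to -44 and at -87 to -81. Sphk1 has 5 windows from different starts, of which 2 hold this AP-1 site, at -50 to -44 in the one shown and at -124 to -118 in the other, and 3 hold no match.
Cyp1b1: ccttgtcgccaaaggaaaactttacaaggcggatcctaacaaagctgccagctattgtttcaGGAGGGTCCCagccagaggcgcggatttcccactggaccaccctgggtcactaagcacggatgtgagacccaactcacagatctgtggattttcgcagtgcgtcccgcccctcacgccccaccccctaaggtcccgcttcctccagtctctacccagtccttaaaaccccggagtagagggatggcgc
Sphk1: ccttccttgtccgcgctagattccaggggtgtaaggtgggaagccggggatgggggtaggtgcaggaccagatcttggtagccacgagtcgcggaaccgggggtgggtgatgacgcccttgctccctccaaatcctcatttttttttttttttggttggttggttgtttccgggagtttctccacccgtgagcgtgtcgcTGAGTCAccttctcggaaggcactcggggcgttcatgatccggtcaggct
Hamp: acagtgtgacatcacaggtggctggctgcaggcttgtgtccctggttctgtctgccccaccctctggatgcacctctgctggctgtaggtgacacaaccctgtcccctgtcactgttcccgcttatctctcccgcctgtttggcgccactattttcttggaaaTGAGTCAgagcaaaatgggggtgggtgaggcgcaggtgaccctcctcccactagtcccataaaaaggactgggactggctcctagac

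These matches describe the letters and not a bound site. Among promoter windows of genes that rose, 8.31% (29 of 349) held the NF-kB consensus, against 7.91% (20 of 253) for genes that fell and 5.9% (1068 of 18109) for all measured genes. The AP-1 site was in 5.16% (18 windows) for genes that rose, 0.791% (2 windows) for genes that fell and 3.96% (717 windows) for all. The CRE site was in 2.01%, 0.395% and 2.12% of these windows, and the aryl hydrocarbon response element core in 3.15%, 5.53% and 5.55%. Windows of 1 gene can overlap, and no test was made of these shares.

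Cytokine genes held the highest share of rises among the lists, with 10 of 28 measured members higher (35.71%, against 1.89% of all genes) and 0 lower. Their median change was 1.26, against 0.05 over all genes. Csf3, which encodes the neutrophil growth factor G-CSF, went from 5.71 and 4.91 to 12.29 and 12.03, a rise of 6.85 ± 0.34 (adjusted p = 0.000266). Il10, an anti-inflammatory cytokine gene, went from 6.41 and 5.65 to 12.48 and 12.57, a rise of 6.50 ± 0.40 (adjusted p = 0.000374). For both genes the PGN arrays were close together and far above either unstimulated array. Il1f6, the gene of the epithelial and myeloid IL-36 alpha, stood at 5.59, 5.49, 10.47 and 10.38, and Tnfsf9, the ligand of the T cell co-stimulator 4-1BB, at 8.25, 8.69, 12.46 and 12.38. Their rises were 4.88 ± 0.30 and 3.95 ± 0.22. Il1a, encoding the alarm cytokine IL-1 alpha, rose by 3.49 ± 0.37.

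Of the subunit genes of IL-12 and IL-23, those specific to each cytokine rose and the shared one did not pass. Il23a, specific to IL-23, stood at 7.84, 5.79, 11.16 and 9.85 and rose by 3.69 ± 0.74 (adjusted p = 0.0345). Il12a, specific to IL-12, stood at 7.49, 6.01, 10.60 and 10.23 and rose by 3.66 ± 0.75 (adjusted p = 0.0383). In both genes unstimulated replicate 1 was well above replicate 2. Il12b, whose product pairs with both, stood at 5.35, 5.53, 6.17 and 5.37, with overlapping groups and a change of 0.33 ± 0.32 (adjusted p = 0.745). Without 1 array the change of Il23a lay between 2.67 and 4.71, and it did not pass without unstimulated replicate 2 (adjusted p = 0.21), PGN replicate 1 (0.142) or PGN replicate 2 (0.0994). The change of Il12a lay between 2.93 and 4.40, and it did not pass when any 1 of the 4 arrays was left out (adjusted p from 0.0644 to 0.254).

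Among the inflammatory cytokines made first in such responses, Tnf rose by 1.43 ± 0.28 from 11.46 and 11.60 to 13.15 and 12.77. Il6 stood at 7.64, 6.55, 9.43 and 8.50, with all PGN values above all unstimulated ones and a change of 1.88 ± 0.54 (adjusted p = 0.118, below the threshold only with the replicate block, at 0.0145). Il1b was already at 14.10 and 14.23 in unstimulated cells and stood at 14.24 and 14.09 with PGN, above the 99th percentile of every NOD.Idd3 array (13.33 to 13.41), near the upper end of the scale. Osm, Clcf1 and Tnf had the smallest rises of the list, with 1.47 ± 0.27 for Osm and 1.73 ± 0.22 for Clcf1, both genes of the IL-6 family. Of this list 6 and 5 members rose without unstimulated replicates 1 and 2, and 7 and 5 without PGN replicates 1 and 2, with 1 fall without PGN replicate 1.

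Of 28 chemokine genes 1 rose (3.57%, against 1.89% of all genes) and none fell (median 0.12). That gene was Ccl4, an attractant of monocytes and T cells, at 12.02, 10.86, 14.10 and 13.86, with a rise of 2.54 ± 0.48 (adjusted p = 0.0275) that did not pass without unstimulated replicate 2 or without either PGN array. Ccl3, its neighbour in function, changed by 1.27 ± 0.34 (adjusted p = 0.0962, which was 0.0231 with the replicate block), and the neutrophil attractant Cxcl2 by 0.56 ± 0.35. With the block 2 chemokine genes rose and 3 fell. Of 21 chemoattractant receptors 2 rose (9.52%) and 1 fell (4.76%), against 1.89% and 1.25% of all genes (median -0.28). Ccr7, the receptor that guides cells to lymph nodes, rose by 2.01 ± 0.31 and S1pr3, a receptor of sphingosine 1-phosphate, by 2.93 ± 0.42, where 2 other probe sets of S1pr3 changed by 2.05 and 0.01. Sphk1, the kinase that makes that lipid, went from 4.39 and 4.63 to 8.81 and 9.65, a rise of 4.72 ± 0.45, while another probe set of Sphk1 changed by 1.53. Cx3cr1, the fractalkine receptor of monocytes, fell and is described with the falls. With the block 5 of these receptors rose and 3 fell, and without unstimulated replicate 2 or PGN replicate 2 none passed.

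**Figure D2:**
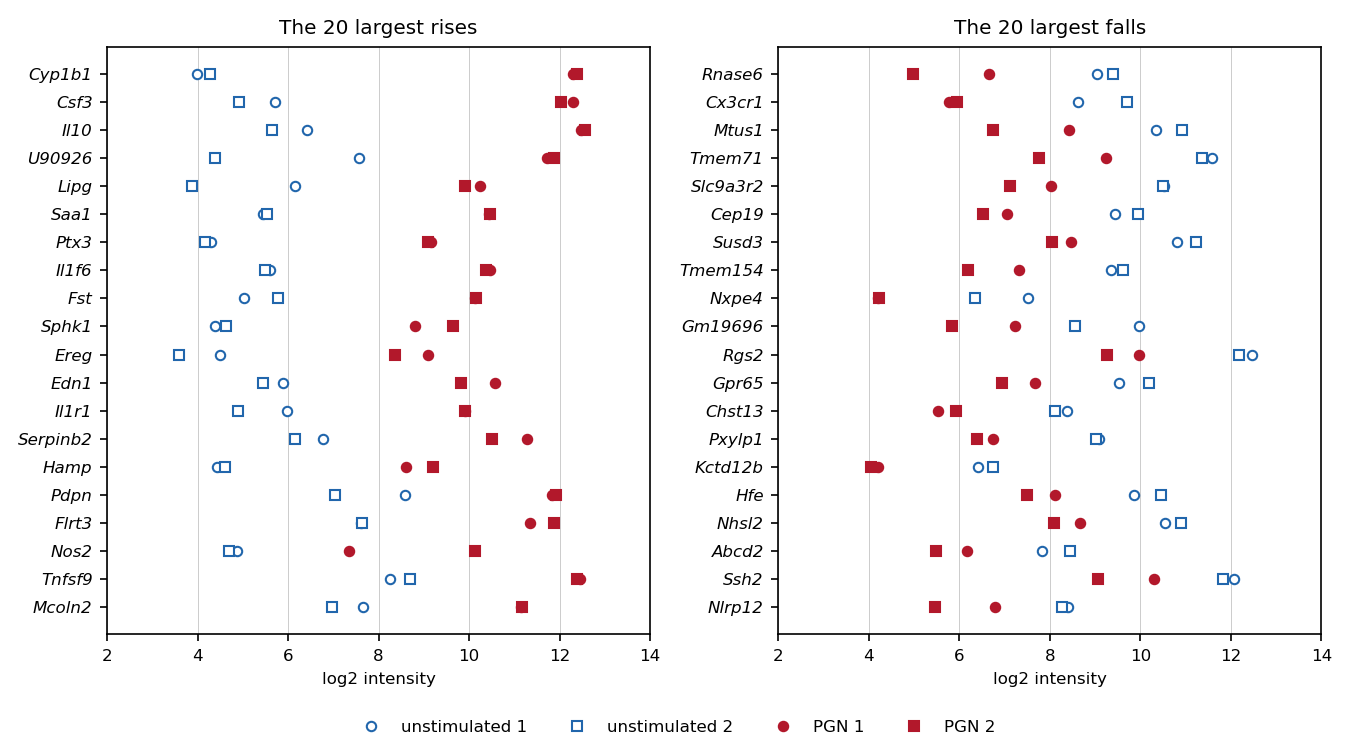
Log2 intensity (horizontal axes) of the 20 largest rises (left) and the 20 largest falls (right) on each of the 4 NOD.Idd3 arrays, open symbols for unstimulated and filled symbols for PGN, circles for replicate 1 and squares for replicate 2. As in every gene that passed, the conditions do not overlap. The spread between replicates is widest in unstimulated cells for U90926 (7.57 and 4.39) and in PGN-treated cells for Nos2 (7.34 and 10.13).

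Of 37 measured Toll-like receptor and peptidoglycan sensing genes 1 rose (2.70%) and 2 fell (5.41%), with a median of -0.06. Of all genes 1.89% rose and 1.25% fell. Tlr2, the surface receptor for PGN, stood at 12.95, 13.07, 13.50 and 13.43, with a change of 0.45 ± 0.20 (adjusted p = 0.339). Irak2, a kinase that carries the receptor signal onward, rose by 1.56 ± 0.25. Tlr5, the flagellin receptor gene, fell by 1.80 ± 0.36 from 6.81 and 7.49 to 5.39 and 5.32, and Nlrp12, of the NOD-like receptor family, went from 8.41 and 8.27 to 6.78 and 5.47. As in every gene that passed, both falls were seen on each PGN array against each unstimulated array. With the replicate block 3 members rose and 2 fell, and without PGN replicate 1 there was 1 call, a fall, while without any other NOD.Idd3 array there was none. Nod2 and Ripk2 had no probe set with a single gene name and were not analysed here.

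Among NF-kB subunits and their regulators 6 of 27 rose (22.22%, against 1.89% of all genes) and none fell, with a median of 0.78. The c-Rel gene Rel rose by 1.65 ± 0.20, from 9.45 and 9.22 to 11.09 and 10.88, and Nfkb2, the p100 precursor, by 1.31 ± 0.24. The inhibitors and regulators Nfkbib (1.33 ± 0.21), Tnip2 (1.33 ± 0.23) and Zc3h12c (1.29 ± 0.28) rose too, as did Bcl3 (1.39 ± 0.24). Nfkbia, the classical feedback inhibitor, was bright throughout (13.86, 13.95, 14.10 and 13.86) and changed by 0.07 ± 0.26. With the replicate block 11 members rose. Without replicate 1 of either condition 3 rose, and without replicate 2 of either condition none passed.

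Of 24 MAP kinase phosphatases and feedback genes 3 rose (12.50%) and 1 fell (4.17%), against 1.89% and 1.25% of all genes (median 0.40). Dusp2, a nuclear phosphatase gene, went from 9.87 and 9.29 to 12.06 and 12.09, a rise of 2.50 ± 0.27. Dusp4 rose by 2.18 ± 0.32 and Dusp14 by 1.41 ± 0.24, while Dusp1 stood at 13.27, 13.09, 13.81 and 13.80 with a change of 0.62 ± 0.22 that did not pass (adjusted p = 0.206). Rgs2, which shortens G protein signals, fell. When any 1 NOD.Idd3 array was left out, 1 member of this list rose. Of 49 inducible transcription factors 8 rose (16.33%, against 1.89% of all genes) and none fell (median 0.34), or 12 and 1 with the block. Batf, a partner of JUN proteins, stood at 10.69, 9.22, 12.85 and 12.78 and rose by 2.86 ± 0.53, and Junb rose by 1.66 ± 0.22. The others were Maff (1.84 ± 0.31), Id1 (1.75 ± 0.27), Runx1 (1.66 ± 0.20), Runx3 (1.40 ± 0.25, another probe set 0.38), Nr4a3 (1.27 ± 0.24, other probe sets 2.53 and 0.31) and Nfil3 (1.15 ± 0.24). Without replicate 1 of unstimulated or PGN-treated cells 2 and 3 of them rose, and without replicate 2 of either none passed. Dusp2 passed without each array in turn.

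Receptors of the IL-2 family and the JAK-STAT genes below them had 6 rises among 34 measured members and no fall (median 0.46). The rises were 17.65% of the list, against 1.89% of all genes. Il2ra, which encodes the alpha chain of the receptor for IL-2, went from 5.59 and 4.64 to 7.42 and 8.26, a rise of 2.73 ± 0.54 (adjusted p = 0.0326). Il4ra, the receptor chain shared by IL-4 and IL-13, went from 10.25 and 10.42 to 12.11 and 12.78, a rise of 2.11 ± 0.27 (adjusted p = 0.0075). The feedback inhibitors Cish and Socs3 rose by 2.47 ± 0.54 and 1.93 ± 0.41, and Il7r by 1.11 ± 0.22. With the block 11 members rose. Without unstimulated replicate 1 and PGN replicate 1 there were 1 and 2 rises, and without replicate 2 of either condition none.

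Il2 and Il21, the cytokine genes of the Idd3 interval, were dim on every NOD.Idd3 array, with Il2 between 3.42 and 3.71 and Il21 between 2.95 and 3.18. Their changes were 0.17 ± 0.21 each. None of the 14 measured genes of the interval and its neighbours passed (median -0.08), where 3.14% of all genes did. Of the 14, 9 had means below 6 in both conditions.

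Genes linked to regulation of immune responses had 7 rises (23.33%, against 1.89% of all genes) and no fall among 30 (median 0.38). Beside Il10 they included both indoleamine dioxygenases, which break down tryptophan. Ido2 stood at 5.13, 5.20, 7.99 and 7.97, a rise of 2.82 ± 0.27, and the replicates of each condition were close together. Ido1 stood at 4.60, 4.66, 6.29 and 7.89, a rise of 2.46 ± 0.53, and Nos2, the inducible nitric oxide synthase gene, at 4.87, 4.70, 7.34 and 10.13, a rise of 3.96 ± 0.80. In Ido1 and Nos2 PGN replicate 2 was far above PGN replicate 1. The change of Nos2 was 2.56 without PGN replicate 2 (adjusted p = 0.13) and 5.35 without PGN replicate 1 (0.0112), and it did not pass without either unstimulated array (0.14 and 0.209). Ptges, the inducible prostaglandin E synthase gene, went from 11.37 and 10.10 to 12.85 and 13.19, a rise of 2.28 ± 0.44, while Ptgs2, the cyclooxygenase before it, changed by 0.76 ± 0.47 (adjusted p = 0.543). Of the prostaglandin and leukotriene list 9.09% rose, against 1.89% of all genes. The prostaglandin and leukotriene list had 2 rises among 22, Ptges and Ptges2 (1.29 ± 0.27), and a median of -0.07, and no member passed without unstimulated replicate 2 or either PGN array.

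The list of arginine, nitric oxide and tryptophan enzymes had 4 rises among 22 (18.18%, against 1.89% of all genes, median 0.35). They were Nos2, Ido1, Ido2 and Slc7a2, an arginine transporter gene at 2.46 ± 0.39. The regulatory list had 4 and 2 rises without unstimulated replicates 1 and 2 and 4 and 2 without PGN replicates 1 and 2. The enzyme list had 2, 1, 4 and 1.

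Growth factor genes had 7 rises (24.14%, against 1.89% of all genes) and no fall among 29 (median 0.29). Of the 29, 12 had means below 6 in both conditions. Inhba, the chain of activin A, went from 7.72 on both unstimulated arrays to 10.85 and 11.66, a rise of 3.53 ± 0.38. Fst, whose product binds and blocks activin, went from 5.02 and 5.77 to 10.13 and 10.15, a rise of 4.75 ± 0.45. Another probe set of Inhba changed by 0.23 and one of Fst by 3.26. The EGF family gene Ereg stood at 4.49, 3.58, 9.10 and 8.36, a rise of 4.69 ± 0.45. Nrg1, of the same family, rose by 3.54 ± 0.48. Edn1, the vasoconstrictor endothelin-1, rose by 4.53 ± 0.29, Pgf, a relative of VEGF, by 3.66 ± 0.33 and Pdgfa by 2.15 ± 0.45. Without single NOD.Idd3 arrays 5 to 7 members rose.

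Acute-phase and complement genes had 5 rises and no fall among 28 (median 0.18), or 8 and 1 with the block, and 4 to 6 rises without single NOD.Idd3 arrays. The 5 rises were 17.86% of the list, against 1.89% of all genes. The serum amyloid A gene Saa1 stood at 5.44, 5.53, 10.44 and 10.47, a rise of 4.98 ± 0.37 (adjusted p = 0.000847), and its close relative Saa2 rose by 2.97 ± 0.33. The pattern recognition gene Ptx3 stood at 4.30, 4.16, 9.15 and 9.10, a rise of 4.90 ± 0.33. In Saa1 and Ptx3 the replicates of a condition were close together, while another probe set of Ptx3 changed by 0.5. Hamp, which encodes the iron hormone hepcidin, stood at 4.42, 4.61, 8.61 and 9.21, a rise of 4.39 ± 0.42. Lipg, the endothelial lipase gene, rose by 5.06 ± 0.74 with unlike unstimulated values (6.15 and 3.88), and its other probe sets changed by 5.51 and 0.33.

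Of 25 NRF2 target, metallothionein and metal transporter genes 4 rose (16.00%, against 1.89% of all genes) and none fell (median 0.07). The 4 were transporters of metal ions. Other bright members linked to iron, Slc11a1 and Fth1, changed by 0.08 ± 0.20 each. Slc11a2, the importer of ferrous iron, went from 9.21 and 8.52 to 11.66 and 11.65, a rise of 2.79 ± 0.27. The zinc transporters Slc39a14, Slc39a8 and Slc30a4 rose by 1.97 ± 0.24, 1.78 ± 0.26 and 1.72 ± 0.33, while another probe set of Slc39a8 changed by 0.21. Without unstimulated replicates 1 and 2 there were 2 and 1 rises, and without PGN replicates 1 and 2 there were 3 and 1. Hfe, the hemochromatosis gene, which acts upstream of hepcidin in the liver, fell by 2.35 ± 0.37, from 9.85 and 10.46 to 8.12 and 7.49. Another probe set of Hfe changed by -0.41.

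Coagulation, plasminogen and matrix genes moved in both directions, with 6 rises and 2 falls among 30 (median 0.52) and 11 rises and 2 falls with the block. Serpinb2, an inhibitor of plasminogen activators, went from 6.78 and 6.16 to 11.29 and 10.50, a rise of 4.42 ± 0.46. F3, which encodes tissue factor, the starter of coagulation, rose by 2.78 ± 0.39, and the coagulation factors F7 and F10 by 1.51 ± 0.29 and 1.26 ± 0.23. Timp1, an inhibitor of matrix metalloproteinases, rose by 2.56 ± 0.50 and the membrane-bound Mmp14 by 2.49 ± 0.49. Mmp9, a metalloproteinase stored in neutrophil granules, fell by 1.61 ± 0.27 from 12.84 and 13.06 to 11.47 and 11.21, and the hyaluronan synthase gene Has2 fell by 1.95 ± 0.28. The rises numbered 2 and 1 without unstimulated replicates 1 and 2 and 3 and 2 without PGN replicates 1 and 2, and Mmp9 did not pass when any 1 of the 4 arrays was left out (adjusted p from 0.0542 to 0.165), while Has2 passed only without PGN replicate 1 (0.0368).

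Of 24 co-stimulatory and co-inhibitory ligands 3 rose (12.50%, against 1.89% of all genes, median 0.44), or 8 with the block. They were Tnfsf9, Slamf1 (2.45 ± 0.40) and Cd276 (1.36 ± 0.27), and 1 or 2 of the list passed without single NOD.Idd3 arrays. Purinergic and other G protein-coupled receptors had 3 rises (12.50%) and 1 fall (4.17%) among 24, against 1.89% and 1.25% of all genes (median 0.10). Hcar2, a receptor of nicotinic acid and ketone bodies, stood at 11.46, 9.62, 13.34 and 13.23, a rise of 2.74 ± 0.60. P2ry2, a receptor of ATP and UTP, rose by 2.11 ± 0.34 and Gpr84, a receptor of medium-chain fatty acids, by 1.31 ± 0.24. The acid-sensing receptor Gpr65 fell. Without unstimulated replicate 1 there were 2 rises and without any other NOD.Idd3 array none.

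Pfkfb3, which speeds glycolysis, went from 10.62 and 10.37 to 12.78 and 12.72, a rise of 2.26 ± 0.20, and the hypoxia-inducible Ndrg1 rose by 2.04 ± 0.23. They were the 2 rises among 27 glycolysis and hypoxia genes (7.41%, median 0.21). Of all genes 1.89% rose, against 8.33% of the survival list and 4.17% of the heat shock list below. With the block 4 rose, and without replicate 2 of either condition 1. Of 24 survival and cell death genes 2 rose (median 0.05), Bcl2l1, which encodes the survival protein Bcl-xL, at 2.05 ± 0.19 and Phlda1 at 2.54 ± 0.20, and both passed without each array in turn. Ddit4, an inhibitor of mTORC1, rose by 2.00 ± 0.29 and was the single call among 24 heat shock and unfolded protein response genes (median 0.24), a call that was lost when any 1 NOD.Idd3 array was left out. Beside Sphk1, 5 of the 20 largest rises lay outside the lists. U90926 rose by 5.82 ± 0.90 (adjusted p = 0.0147), and its unstimulated values lay far apart (7.57 and 4.39). The others were Il1r1, the signalling receptor of IL-1, at 4.47 ± 0.44 (another probe set changed by 0.18), podoplanin (Pdpn) at 4.08 ± 0.55, the adhesion gene Flrt3 at 3.99 ± 0.31 and the lysosomal channel gene Mcoln2 at 3.85 ± 0.30.

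**Figure D3:**
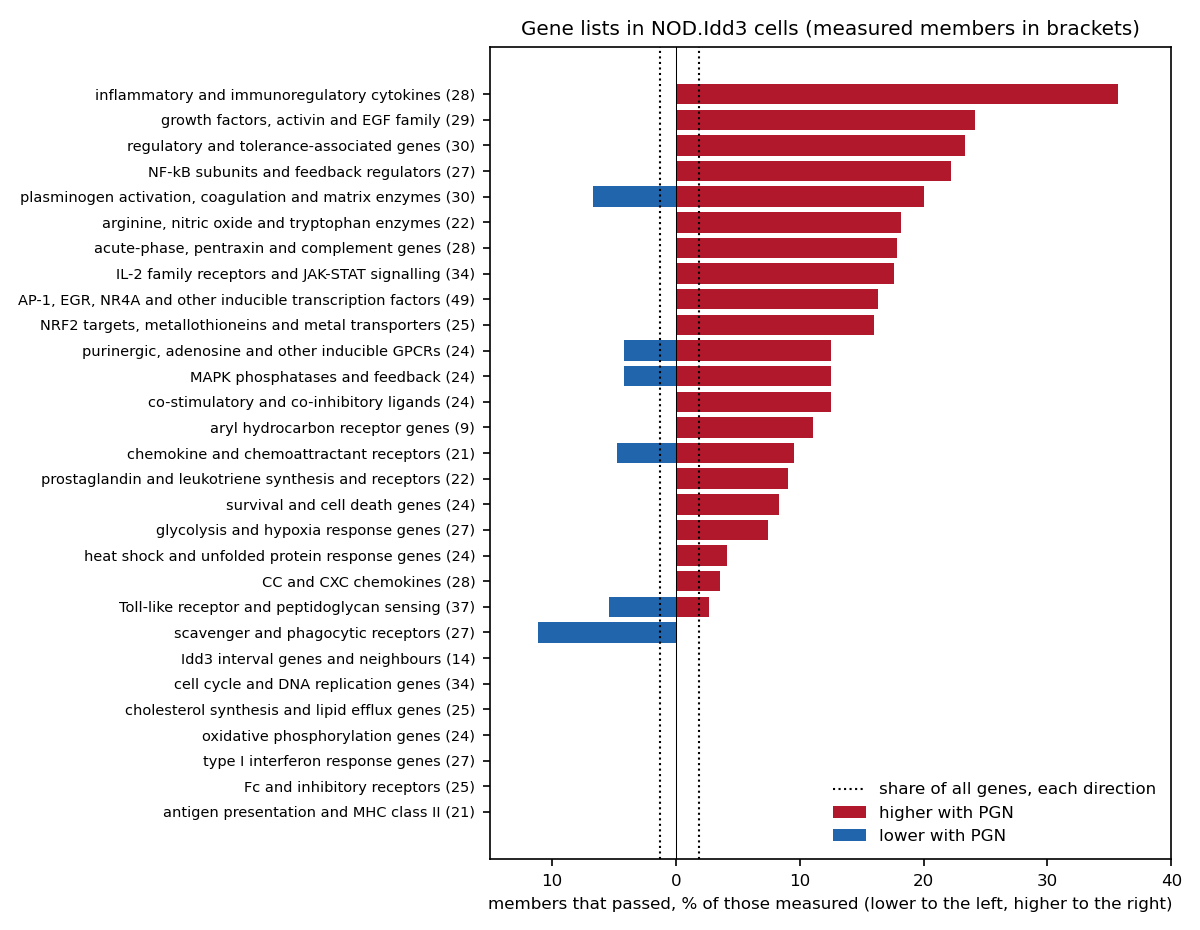
Share of the measured members of each gene list that passed (horizontal axis, %), higher with PGN to the right in red and lower to the left in blue, with the number measured in brackets. Dotted lines mark the share of all genes in each direction (1.89% higher, 1.25% lower), and the cytokine list has the longest bar, with 10 of 28 members higher.

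The largest falls were smaller in size than the largest rises. Rnase6, an antimicrobial ribonuclease gene, went from 9.04 and 9.39 to 6.66 and 4.98, a fall with a log2 change of -3.39 ± 0.47 (adjusted p = 0.0105). Cx3cr1 went from 8.62 and 9.70 to 5.76 and 5.95, a change of -3.30 ± 0.50 (adjusted p = 0.014), where another probe set changed by -1.6. As in every gene that passed, the groups were apart on all arrays, and in Rnase6 PGN replicate 2 lay well below PGN replicate 1. Mtus1 (-3.04 ± 0.60), Tmem71 (-2.97 ± 0.42), Cep19 (-2.90 ± 0.56) and Slc9a3r2 (-2.94 ± 0.37), a scaffold protein gene, followed. Without PGN replicate 1 or 2 the number of falls was 135 and 4, and without unstimulated replicates 1 and 2 it was 31 and 4. Cx3cr1 passed only without unstimulated replicate 1 when 1 NOD.Idd3 array was left out, and Rnase6 failed only without unstimulated replicate 2.

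Rgs2 was bright in unstimulated cells (12.46 and 12.17) and stood at 9.97 and 9.26 with PGN, a change of -2.70 ± 0.32 (adjusted p = 0.00527). Its other probe sets changed by -3.03, -3.27 and -0.49. Susd3 stood at 10.82, 11.22, 8.47 and 8.05, a change of -2.76 ± 0.29 (adjusted p = 0.00299), and passed without each array in turn. Gpr65 went from 9.52 and 10.19 to 7.68 and 6.95, a change of -2.54 ± 0.31. Abcd2, a peroxisomal fatty acid transporter gene, and Ssh2, a phosphatase of the actin regulator cofilin, changed by -2.31 ± 0.46 and -2.26 ± 0.40. The other probe sets of Abcd2 changed by -2.63, -2.78 and -0.07. Of 27 scavenger and phagocytic receptor genes none rose and 3 fell (11.11%, against 1.25% of all genes, median -0.12). These were Rnase6, the lectin gene Clec10a (-1.61 ± 0.28) and the collectin gene Colec12 (-2.03 ± 0.43). Without single NOD.Idd3 arrays 0 to 2 of them passed.

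Several functions had no member that passed. Since 3.14% of all genes passed, lists of this size would hold few calls or none at that share. No gene passed among 21 for antigen presentation (median -0.08), where Cd74 stood between 14.22 and 14.40 and H2-Aa between 13.49 and 13.81. The same held for 25 Fc and inhibitory receptors (-0.10), 24 oxidative phosphorylation genes (-0.07), 25 cholesterol and lipid efflux genes (-0.02) and 34 cell cycle genes (-0.31). Of 27 type I interferon response genes none passed (median 0.08), and 25 were higher in replicate 1 than in replicate 2 in both conditions, with a median gap of 1.53 in unstimulated and 1.0 in PGN-treated cells. With the replicate block no interferon or oxidative phosphorylation gene passed either. With it 1 antigen presentation gene rose and 1 fell, 2 Fc and inhibitory receptor genes rose and 2 fell, 1 cholesterol and lipid efflux gene rose, and 1 cell cycle gene rose and 2 fell.

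The CD11b+ label was compared with marker genes, in lists too short to hold many calls at the 3.14% share of all genes. Itgam stood at 9.02, 8.73, 8.85 and 8.25, above the array medians (6.42 to 6.47). Neutrophil genes were among the brightest, with S100a8 between 14.32 and 14.65 and Camp between 14.29 and 14.68. The myeloid gene Lyz2 stood at 13.93, 14.28, 13.83 and 13.72, a change of -0.33 ± 0.21 (adjusted p = 0.546), and Tyrobp at 13.77, 13.83, 13.55 and 13.35, a change of -0.35 ± 0.19 (adjusted p = 0.468). Both were lower on each PGN array than on each unstimulated array, without passing. The share of all genes with such a gap was not counted. Of the same general myeloid list (median -0.26), Csf1r changed by -0.26 ± 0.20, Itgb2 by -0.05 ± 0.20 and Fcer1g by -0.01 ± 0.19. Cd68 was higher on both PGN arrays, at 13.22, 13.28, 13.62 and 13.58, a change of 0.35 ± 0.19. Of 11 neutrophil markers 1 fell, Mmp9, and the log2 of their summed intensity was 16.76 and 17.15 in unstimulated and 16.62 and 16.59 in PGN-treated cells. Of 7 monocyte markers Cx3cr1 fell and the sum was 14.87 to 15.16 over the 4 arrays, while none of 9 general myeloid (16.29 to 16.52) and 10 macrophage markers (13.03 to 13.60) passed.

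Markers of other cells were also measured, many of them dim. Means were below 6 in both conditions for 4 of 11 B cell, 6 of 11 T cell, 4 of 7 platelet and 4 of 8 NK cell markers. The same held for 6 of 8 stromal and endothelial, 5 of 8 mast cell and basophil and 5 of 5 erythroid markers. It held for 3 of 8 dendritic cell, 2 of 8 resident peritoneal macrophage, 2 of 5 eosinophil and 1 of 7 plasma cell markers. A summed level is carried by the brightest members. The summed log2 level of 11 B cell markers was 10.01 and 10.75 in unstimulated and 9.97 and 10.66 in PGN-treated cells, and that of 11 T cell markers lay between 12.95 and 13.22 over the 4 arrays. The 7 platelet markers summed to 11.70 and 10.89 against 10.17 and 9.65, lower on both PGN arrays, but their median change was -0.02. None passed, and 2 fell with the block, Pf4 (-1.36 ± 0.35) and Ppbp (-2.33 ± 0.64). Gp9, Itga2b and Treml1 changed by -0.02 ± 0.20, 0.14 ± 0.24 and -0.11 ± 0.22. The 8 NK cell markers summed to 10.02 and 10.76 against 9.95 and 11.28, and the 8 stromal and endothelial markers to 8.29 and 8.17 against 8.99 and 9.10. The calls in these 5 lists were Il7r, listed with the T cell markers, and Kdr, listed with the stromal and endothelial markers (1.50 ± 0.33). None of 7 plasma cell markers passed, with summed levels of 13.62 and 13.45 against 14.13 and 14.28, and none of 8 resident peritoneal macrophage (11.13 to 11.32), 5 eosinophil (8.34 to 9.37), 8 mast cell and basophil (12.75 to 13.75) and 5 erythroid markers (6.61 to 6.88) did. Of 8 dendritic cell markers Ccr7 rose, and their summed level was 12.60 and 11.91 against 12.85 and 12.89. With the block 2 plasma cell markers rose, Sdc1 (2.02 ± 0.47, adjusted p = 0.0589 without and 0.00424 with the block) and Irf4 (1.72 ± 0.51, 0.133 and 0.0208). So did 2 NK cell markers, Gzmb (2.09 ± 0.55, 0.0875 and 0.0111) and Gzma (1.10 ± 0.99, 0.721 and 0.0334), 1 B cell, 1 macrophage and 2 stromal and endothelial markers, while 2 neutrophil markers and 1 T cell marker fell. The values of Gzma overlapped between conditions (7.01, 9.27, 8.07 and 10.41). Other NK cell markers, Klrd1, Prf1 and Eomes, changed by -1.02 ± 0.66, -0.36 ± 0.20 and 0.13 ± 0.43, and the list median was 0.17. The part of any of these cell types in the changes above was not tested. Of the defining B cell genes Cd79a stood at 8.02, 8.50, 7.74 and 8.01. Of the T cell receptor complex Cd3d stood at 11.95, 12.30, 11.03 and 10.72, a change of -1.25 ± 0.30 (adjusted p = 0.067, which was 0.032 with the block), Cd3g changed by -0.83 ± 0.40 and Cd3e by -0.18 ± 0.24. The T cell sum also holds Il7r, which rose by 1.11 ± 0.22.

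The 2 replicate numbers gave the same direction for all 572 genes, which must be so where the conditions do not overlap. The size of the change was not the same. The change was larger within replicate 2 for 430 of them, 253 of the rises and 177 of the falls. The median gap between the changes of the replicates was 0.45, and it was over 1 for 76 genes. U90926 rose by 4.16 within replicate 1 and by 7.48 within replicate 2, and Nos2 by 2.47 and 5.44, while Saa1 (5.01 and 4.95) and Il1f6 (4.88 and 4.89) were alike.

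In the unstimulated arrays replicate 1 was above replicate 2 for 241 of the 344 genes that rose (70.1%), against 7731 of all 18193 genes (42.5%). Among the genes that fell the share was 41.7% (95 of 228). Among those that rose, replicate 1 was above by over 1 for 33 and below by over 1 for none, against 386 and 87 of all genes. Unstimulated replicate 1 is the one NOD.Idd3 array whose name carries the suffix RR1, whose meaning the sources used here do not give. In NOD both replicate 2 arrays carry it, so there the suffix follows the replicate number. For the genes that rose, the median of unstimulated replicate 1 minus replicate 2 was 0.19 in NOD.Idd3 and 0.08 in NOD. With the suffix as a term 235 genes passed, 183 higher and 52 lower, of which 177 and 50 were among the 572.

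**Figure D4:**
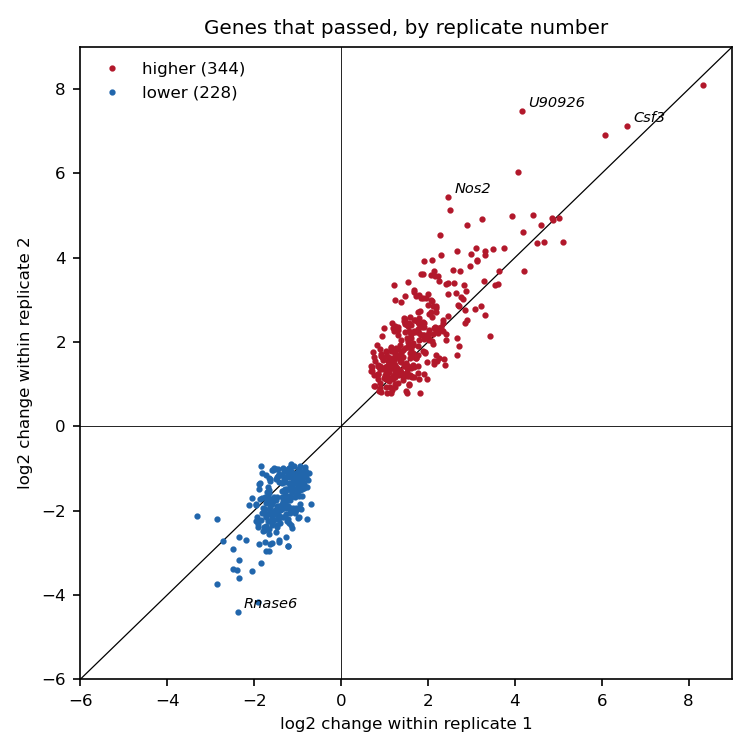
Log2 change with PGN within replicate 1 (horizontal axis) and within replicate 2 (vertical axis) for the 572 genes that passed in NOD.Idd3, with the line of equal change. Points lie farther from 0 on the vertical axis for 430 genes, and U90926 (4.16 and 7.48) and Nos2 (2.47 and 5.44) are far from the line.

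The response was compared with that of NOD cells, whose 4 arrays are separate from those of NOD.Idd3. Of the 344 genes that rose, 342 had the same sign in NOD, and 240 also passed there. All 228 genes that fell had the same sign, and 161 also passed, of 717 among 18193 genes that passed in NOD. These genes were chosen for their change in NOD.Idd3, and both strains share an estimate of the spread. The share with the same sign over all genes was not counted. The difference between the responses was tested as an interaction in limma, and 0 genes passed (0% of 18193), with 314 at an unadjusted p under 0.05 and a smallest adjusted p of 1.00. Of the 572 genes, 37 had an unadjusted p under 0.05. No gene passed with the replicate block.

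Il10 rose by 6.50 ± 0.40 in NOD.Idd3 and 6.54 ± 0.40 in NOD, with a difference of -0.04 ± 0.56. Saa1 rose by 4.98 ± 0.37 and 3.51 ± 0.37 (unadjusted p of the difference 0.0205). Il1f6 rose by 4.88 ± 0.30 and 5.97 ± 0.30 (unadjusted p 0.0297). Gpr65 changed by -2.54 ± 0.31 and -1.49 ± 0.31 (unadjusted p 0.0418). Nos2 changed by 3.96 ± 0.80 and 1.71 ± 0.80 (unadjusted p 0.0801), and Il6 by 1.88 ± 0.54 and 3.57 ± 0.54. The smallest p-values of the difference belonged to Phxr4, with a change of 0.92 ± 0.22 that did not pass in NOD.Idd3 and -0.62 ± 0.22 in NOD, and to 0610040J01Rik, with a rise of 1.83 ± 0.32 and a change of -0.19 ± 0.32. Poli (-0.05 ± 0.26 and -1.61 ± 0.26), Epb41l4b (2.39 ± 0.27 and 0.82 ± 0.27) and Slc39a8 (1.78 ± 0.26 and 0.35 ± 0.26) followed, and none of these differences passed. The other probe sets of Epb41l4b changed by 0.05 and 0.15 in NOD.Idd3, and that of Slc39a8 by 0.21.

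**Figure D5:**
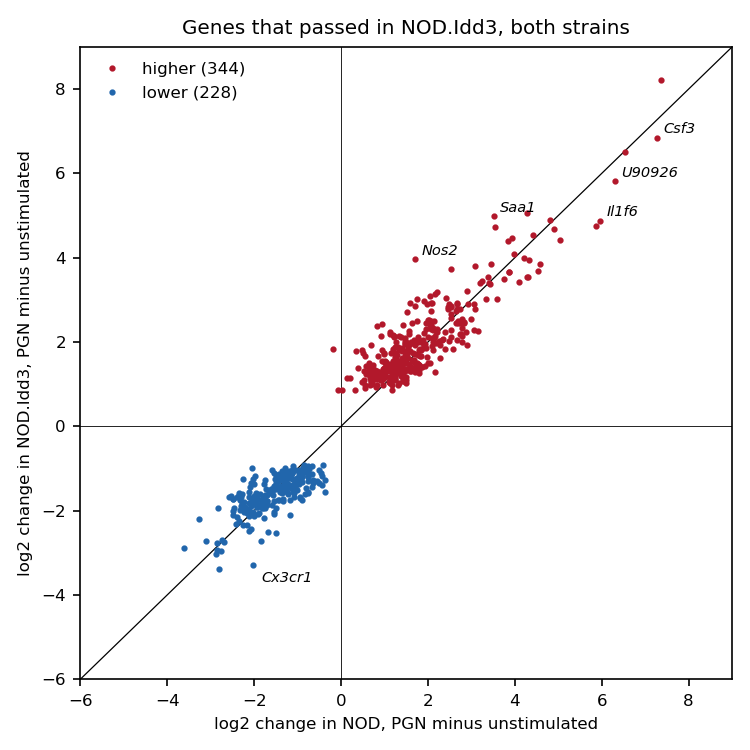
Log2 change with PGN in NOD (horizontal axis) and in NOD.Idd3 (vertical axis) for the 572 genes that passed in NOD.Idd3, with the line of equal change. All but 2 of the 344 red points and all 228 blue points have the same sign on both axes, a share that was not counted over all genes. Nos2 (1.71 in NOD, 3.96 in NOD.Idd3) lies above the line.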

How the data were processed

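Total RNA of CD11b+ cells from NOD.Idd3 and NOD mice was labelled with biotin and hybridised to 8 arrays of 1 colour. The deposited table holds a linear intensity for each probe set and array, made with RMA per the submitters' processing notes. Its version, its software and the chip definition were not given in the sources used here. Log2 was taken of each deposited value, with no further normalization and no filter. Of 45101 probe sets, 64 controls, 9160 without a gene symbol and 932 with several were left out. Of the 34945 others, 34741 matched RefSeq (GRCm38.p6), and the probe set with the highest mean over all arrays stood for each of 18193 genes, of which 9010 had more than 1. Of the named genes that passed, 48 were measured by 86 further probe sets. Of these 0 had the opposite sign, but 22 of them, in 21 genes, changed by less than 1 on the log2 scale. Arrays of a NOD.Idd3 condition correlated across genes at 0.991 (unstimulated) and 0.989 (PGN), and the 3' minus 5' log2 difference of Gapdh control probe sets was 0.72 to 0.80 on them. The number of arrays limits the precision.

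Groups came from the sample labels. Contrasts of the 4 group means were fitted with limma 3.58.1 in R 4.3.3 (lmFit, eBayes, 4 residual and 4.69 prior degrees of freedom) and adjusted by Benjamini-Hochberg over all genes, with a threshold of 0.05. The procedure was tested on simulated data. The 44 lists (83 genes not measured) and the named genes were chosen with earlier results of these data known, and the lists are described by counts and medians without a set test. Named are the 20 largest rises and falls, of each list up to 10 members that passed and 5 bright members that did not, the 10 smallest p-values, the 5 smallest of the difference in response, and Il6, Il1b, Tnf, Il12b, Tlr2, Il2 and Il21. Itgam and Rassf3 were named outside this rule, after their values were seen.

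The replicate numbers pair the arrays, since replicate 1 arrays share a date in the array names and the gap between replicates correlated across genes over all 6 pairs of groups (r from 0.17 to 0.42). The fit has no such term, and the replicate block was an alternative. The others were the array-name suffix, a variance trend, the NOD.Idd3 arrays alone, removal of genes under the 40th percentile, the mean of all probe sets, removal of _x_at and _s_at probe sets, quantile normalization, array weights, log2(value + 32) and leaving out each array.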

Additional observations from a re-analysis of the deposited data

How the results depend on the processing

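No gene that passed changed its direction under any of the 18 alternatives, but most of these could not change it. The block, variance trend, array weights, NOD.Idd3 arrays alone and removal of dim genes or of a NOD array leave the change as it was. Leaving out a NOD.Idd3 array cannot reverse a gene whose conditions do not overlap. The difference between the strains' responses gave 0 genes in each alternative that kept all 8 arrays. It could not be fitted on the NOD.Idd3 arrays alone. With the replicate block 1207 genes passed (667 higher, 540 lower), and the pairing added genes without removing any of the 572. With array weights 994 passed (479 lower). With the array-name suffix as a term 235 passed (183 higher, 52 lower), and on the NOD.Idd3 arrays alone 344 were lower. Leaving out 1 array gave 56 to 624 genes, 52 to 331 higher and 4 to 293 lower, and the fewest came without replicate 2 of either NOD.Idd3 condition. Leaving out 1 NOD.Idd3 array leaves a lone sample in its condition, which is taken to vary like the other groups. The cause of these shifts was not tested. Of 110 named genes that passed, 28 passed under every alternative, among them Cyp1b1, Csf3, Il10, Saa1, Ptx3, Il1f6, Tnfsf9, Inhba, Fst, Ido2, Dusp2, Pfkfb3, Bcl2l1 and Susd3. A gene was counted there over the alternatives that tested it. Of the 110, 106 were tested with dim genes removed and 109 without _x_at and _s_at probe sets. On log2(value + 32), where dim values move less, 37 of the 110 no longer passed, and with the suffix 41. The dim end of the scale limits the size of the changes of the 27 rises whose unstimulated mean and the 8 falls whose PGN mean lay below 4.49.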
